A study of Homo sapiens with 6 samples.

Results

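The genes described here are the aminoacyl-tRNA synthetase genes of the cytosol, the tRNA exporter gene XPOT and a set of amino acid synthesis genes. Poly-A RNA was sequenced from MDA-MB-231 cells, a line long established from a human breast cancer, 2 h after addition of 2 µM of H182 (3 libraries) or of the vehicle DMSO (3 libraries). The series title places H182 among azetidine-based inhibitors of the transcription factor STAT3. The members were a fixed list of 32 gene symbols, matched to the symbol in each row of the deposited table. All 32 were found, each in 1 row, among 27451 gene rows, and all 32 passed the filter of a mean of at least 1 TPM that left 12294 genes to test. There were 20 synthetase genes, XPOT and 11 amino acid synthesis genes. The experiment covers 1 cell line, 1 dose and 1 time.

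Each aminoacyl-tRNA synthetase joins an amino acid to its own tRNAs, and this charging step feeds every round of translation. When amino acids run short, uncharged tRNAs activate the kinase GCN2, and phosphorylation of eIF2alpha by this kinase or by the endoplasmic reticulum kinase PERK raises translation of the transcription factor ATF4. ATF4, paired with C/EBP proteins, binds C/EBP-ATF response elements and raises transcription of asparagine synthetase, of serine and folate enzymes and of many synthetases. This arm is known as the amino acid response, a branch of the integrated stress response.

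Because the members are known for this shared control, their promoters were searched for the core of the C/EBP-ATF response element, TGATGNAA, on both strands. The promoter sequences were those of RefSeq on GRCh38.p14, running from 250 bases before to 50 bases after each annotated start. Promoters of 24 members were matched by symbol. LARS, VARS, YARS, DARS, PSPH, SHMT2, PYCR1 and GPT2 were not matched. The core was present at 1 or more annotated starts of 9 of the 24, against 4.46% of all 27305 genes in that promoter table, and its TGATGCAA form was present in 7 of the 24, against 1.08%. The E-box CACGTG, which overlapped none of these cores, was present in 3 of the 24, against 8.77% of all genes. The search was chosen after the values had been seen, and a match of letters is not a measured binding site. The 9 elements are given with 16 bases on either side, read 5′ to 3′ along the strand that holds TGATGNAA, and capitals mark the core. They are printed because each synthetase that rose after rescaling carries one. NARS, TARS, IARS and MTHFD1L carry one too and did not rise with either scaling.
ASNS: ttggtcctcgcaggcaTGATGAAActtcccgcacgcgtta
AARS: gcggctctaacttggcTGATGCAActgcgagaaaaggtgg
MARS: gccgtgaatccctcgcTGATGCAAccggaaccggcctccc
GARS: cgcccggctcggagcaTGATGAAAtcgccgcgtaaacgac
CARS: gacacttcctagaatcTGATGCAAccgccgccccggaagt
TARS: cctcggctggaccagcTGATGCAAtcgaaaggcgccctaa
NARS: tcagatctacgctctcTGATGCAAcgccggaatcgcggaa
MTHFD1L: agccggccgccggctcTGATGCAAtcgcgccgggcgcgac
IARS: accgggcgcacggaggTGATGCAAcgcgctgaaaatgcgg

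These windows lie at chr7:97872453-97872492 (minus strand as printed) for ASNS, chr16:70289670-70289709 (plus) for AARS, chr12:57488048-57488087 (minus) for MARS, chr7:30594829-30594868 (minus) for GARS and chr11:3057402-3057441 (plus) for CARS. Those of TARS, NARS, MTHFD1L and IARS lie at chr5:33440951-33440990 (minus), chr18:57621799-57621838 (minus), chr6:150866341-150866380 (plus) and chr9:92293687-92293726 (plus). Of the cores, 7 read TGATGCAA while those of ASNS and GARS read TGATGAAA. In ASNS the core spans positions -68 to -61 from the annotated start it is nearest to, in the same direction as the gene. ASNS has a second annotated start, whose window at chr7:97872116-97872415 does not hold the core. CARS, GARS and TARS likewise have a second start with no core in its window, and MTHFD1L has 4 starts, of which 3 hold it. The promoter of ASNS that holds the core, at chr7:97872359-97872658 on the minus strand, is printed because this gene changed most.
ASNS promoter: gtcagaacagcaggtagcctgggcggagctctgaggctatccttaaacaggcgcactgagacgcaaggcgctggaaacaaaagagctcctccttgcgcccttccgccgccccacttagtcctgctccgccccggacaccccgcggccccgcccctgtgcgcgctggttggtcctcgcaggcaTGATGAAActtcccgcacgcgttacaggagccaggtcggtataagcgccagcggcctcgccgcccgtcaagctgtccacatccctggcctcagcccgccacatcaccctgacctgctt

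Values were TPM, a gene's length-corrected share of its library, so levels can be compared between genes but the number of reads behind them is unknown. Within a group, libraries correlated across tested genes at r = 0.9928 to 0.9942, and between groups at 0.9787 to 0.9806. The line's labelled identity was checked against its markers: VIM was at 3430 to 3701 TPM in H182 and 4002 to 4051 TPM in DMSO. Of the genes listed as low or absent, ESR1 and PGR did not exceed 0.06 TPM and CDH1 0.28 TPM in any library. ERBB3 of that list was at 2.78 to 4.21 TPM in H182 and 2.89 to 3.77 TPM in DMSO. Of the leukocyte, endothelial and adipocyte markers examined, none exceeded 2.27 TPM. The luminal epithelial markers were mixed. The keratins KRT8 and KRT18 were at 402 to 438 TPM in H182 and 460 to 488 TPM in DMSO. EPCAM was at 12.5 to 14.6 TPM in H182 and 13.8 to 16.1 TPM in DMSO. GATA3 was at 6.47 to 7.27 TPM in H182 and 9.61 to 11.3 TPM in DMSO, and FOXA1 did not exceed 1.83 TPM in any library. TPM sums to a fixed total, so shares trade off against each other, and the median tested gene changed by -0.09 on the log2 scale. Counts of genes that rose or fell are therefore also given after median-of-ratios scaling, which set the median gene at 0.00. In bulk RNA, fewer cells and less RNA per cell cannot be told apart.

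The question was which transcripts had changed 2 h after H182 was added. The rises in TPM were all among the amino acid synthesis genes, and the synthetase genes moved little. Of the 11 synthesis genes, ASNS, MTHFD2, PSPH and PHGDH rose, none fell and 7 did not pass (limma, Benjamini-Hochberg adjusted p under 0.05 over all tested genes). Over all tested genes 5.30% rose and 18.7% fell, 24.0% in either direction. Of the 20 synthetase genes none rose and 5 fell, and XPOT fell as well. With median-of-ratios scaling 5 synthesis genes and 4 synthetase genes rose and no member fell, where 7.88% of all tested genes rose and 6.78% fell, 14.7% in either direction. The TPM of the groups were fully apart in 20 of the 32 members, 8 of them higher and 12 lower in H182, against 41.4% of all tested genes, and 17 of the 32 had negative changes (11 after rescaling), against 71.2% in TPM. The median log2 change was 0.07 for the synthesis genes and -0.07 for the synthetases, against -0.09 for all tested genes.

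ASNS, which makes asparagine from aspartate and glutamine (ENSG00000070669.16, chromosome 7, 97852118 to 97872542, GRCh38, minus strand), showed the largest change among the members. It had 104, 103 and 109 TPM in the H182 libraries, against 53.7, 56.8 and 57.2 TPM in the DMSO libraries. Every H182 library lay far above every DMSO library. The log2 change was 0.90 (SE 0.048, 95% interval 0.80 to 1.01, limma adjusted p = 1.04e-06), and mean TPM was 1.89-fold higher. It passed in each of the 6 fits that left out 1 library, with log2 changes of 0.87 to 0.92. NARS, the synthetase that charges tRNA with asparagine, did not pass, with 205 ± 3.01 TPM in H182 and 201 ± 5.66 TPM in DMSO (SD, n = 3 each). The ratio of ASNS to NARS transcript levels was accordingly 0.515 ± 0.0196 in H182 and 0.278 ± 0.0129 in DMSO.

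The serine pathway has PHGDH, PSAT1 and PSPH as its consecutive steps from the glycolytic intermediate 3-phosphoglycerate to serine. PSPH, the phosphatase of the last step (chromosome 7, 56011051 to 56051604, minus strand), had 72.1, 71.0 and 72.3 TPM in H182, against 53.5, 53.9 and 57.5 TPM in DMSO. The groups were well apart, and its log2 change was 0.38 (SE 0.049, limma adjusted p = 0.000626). PHGDH, the dehydrogenase of the first step (chromosome 1, 119648411 to 119744226, plus strand), had 29.1, 28.2 and 30.4 TPM in H182, against 24.4, 25.6 and 24.9 TPM in DMSO. These groups did not overlap either, but the change was smaller (log2 change 0.22, adjusted p = 0.0308) and did not pass in any of the 6 limma fits that left out 1 library (adjusted p = 0.0543 to 0.0859). PSAT1, the aminotransferase between them (chromosome 9, 78297143 to 78330093, plus strand), had 135, 137 and 143 TPM in H182, against 122, 131 and 125 TPM in DMSO. Its groups did not overlap, its log2 change of 0.13 did not pass in TPM (limma adjusted p = 0.0618), and with median-of-ratios scaling it rose by 0.24 (adjusted p = 0.00424). All 3 enzymes were thus higher in every H182 library than in any DMSO library, and non-overlap in that direction was seen in 8.67% of all tested genes. The level of PHGDH stayed well below that of PSAT1 in both groups.

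Serine hydroxymethyltransferases pass the one-carbon unit of serine to folate, and MTHFD2 and MTHFD1L carry it on through mitochondrial folate to formate. MTHFD2, the mitochondrial dehydrogenase and cyclohydrolase (chromosome 2, 74198562 to 74217565, plus strand), had 107, 101 and 110 TPM in H182, against 76.2, 80.8 and 76.9 TPM in DMSO. The H182 libraries were all above the DMSO libraries, and the log2 change was 0.44 (SE 0.050, limma adjusted p = 0.000268), a 1.36-fold ratio. Its neighbours in the mitochondrial pathway did not pass: SHMT2 was at 262 ± 17.6 TPM in H182 and 260 ± 8.79 TPM in DMSO, and MTHFD1L, which makes formate, was at 38.5 ± 1.67 and 39.2 ± 2.40 TPM in the same order (SD, n = 3 each). Their 95% intervals on the log2 scale were -0.11 to 0.13 for SHMT2 and -0.17 to 0.12 for MTHFD1L, which leave out a change of the size of MTHFD2's. The cytosolic SHMT1 was at 28.1 ± 1.47 TPM in H182 and 30.7 ± 0.813 TPM in DMSO, a log2 change of -0.13 that did not pass. MTHFD1, the cytosolic enzyme of the same reactions and no member of the set, fell in TPM (log2 change -0.22, limma adjusted p = 0.00401) but not after rescaling by the median of ratios (-0.11, adjusted p = 0.0629). The ratio of MTHFD2 to MTHFD1 was 0.830, 0.767 and 0.822 in H182 and 0.501, 0.517 and 0.511 in DMSO. That ratio does not depend on the scaling, and its groups were apart. Several pseudogene copies of ASNS, MTHFD2 and PSAT1, the copy PSPHP1 of PSPH, and the transcript AC079781.5, which shares exon bases with ASNS on the same strand, are annotated and were not analysed here, so reads that match both could not be assigned with certainty.

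The remaining synthesis genes did not pass with either scaling. Proline is made from glutamate by ALDH18A1 and then by pyrroline carboxylate reductases such as PYCR1. ALDH18A1 was at 56.3 ± 1.34 TPM in H182 and 61.0 ± 2.69 TPM in DMSO, and PYCR1 at 104 ± 2.19 TPM in H182 and 103 ± 3.89 TPM in DMSO. GPT2, the mitochondrial alanine aminotransferase, had the lowest level of all members, at 18.2 ± 1.07 TPM in H182 and 17.2 ± 1.28 TPM in DMSO. Its interval was the widest of the members, -0.11 to 0.26 on the log2 scale. A rise of the size seen for ASNS lies outside the intervals of all 3 genes.

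**Figure D1:**
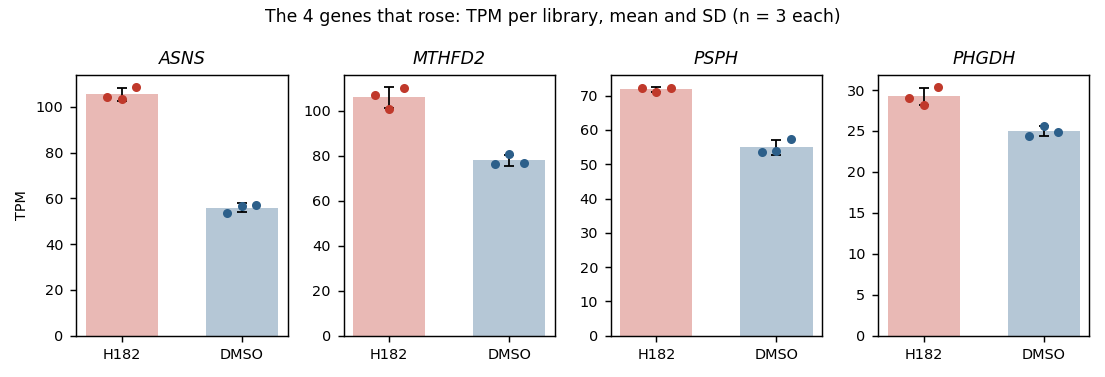
Transcript level in TPM of the 4 members that rose, in H182 and DMSO; bars are means, error bars SDs and points the 3 libraries of each group. ASNS averaged 105 TPM in H182 and 55.9 TPM in DMSO, and in all 4 genes every H182 point lies above every DMSO point.

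The 20 synthetases were abundant transcripts. Averaged over the 6 libraries they lay between FARSB at 41.3 TPM and TARS at 450 TPM, with a median of 138 TPM, and the lowest of them stood at percentile 65.5 of the tested genes. FARSA and FARSB encode the 2 subunits of phenylalanyl-tRNA synthetase, yet the ratio of FARSA to FARSB was 6.96 ± 0.257 in H182 and 6.79 ± 0.0316 in DMSO. Summed over the 20 genes, the level was 3081, 3142 and 3278 TPM in H182, against 3247, 3292 and 3240 TPM in DMSO. The H182 libraries reached into the DMSO range in this sum, which holds for TPM as deposited only. The sums were not rescaled, and the median-of-ratios size factors differed between the groups. They were 0.9492, 0.9627 and 0.9857 for the H182 libraries and 1.031, 1.045 and 1.037 for the DMSO libraries. The median synthetase was at 0.954 of its DMSO mean in H182, and the median tested gene at 0.929 (means of 3 libraries). Also in TPM as deposited, the summed level of the 11 synthesis genes was 931, 952 and 989 TPM in H182, against 829, 868 and 856 TPM in DMSO, with no overlap.

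**Figure D2:**
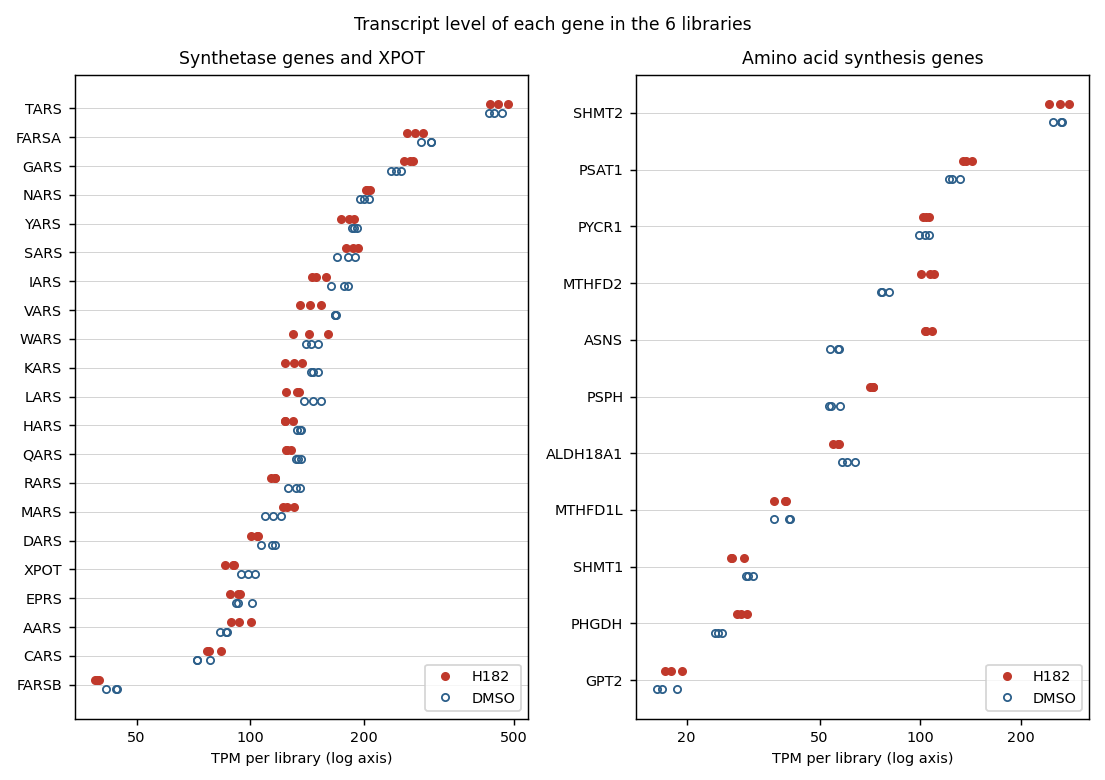
Transcript level of each member in TPM on a log axis, with the 3 H182 libraries as filled points drawn above the 3 DMSO libraries as open points in each row; synthetases and XPOT are on the left and synthesis genes on the right. Among synthetases the groups lie close together, from FARSB near 41.3 TPM to TARS near 450 TPM, and the widest separation on the right is that of ASNS.

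Within the synthetases, 5 genes fell in TPM, to between 0.861 and 0.893 of their DMSO means. VARS, the valine enzyme (chromosome 6, 31777518 to 31795953, minus strand), had 136, 144 and 154 TPM in H182, against 169, 168 and 168 TPM in DMSO. It was lower in every H182 library and kept its call without any library in turn (log2 change -0.22, limma adjusted p = 0.0124). IARS, the isoleucine enzyme, had 149, 145 and 159 TPM in H182, against 177, 181.9 and 163 TPM in DMSO. RARS, the arginine enzyme, had 116, 114 and 116 TPM in H182, against 132, 136 and 126 TPM in DMSO. KARS, the lysine enzyme, which serves both cytosol and mitochondria, had 123, 131 and 137 TPM in H182, against 147, 151 and 145 TPM in DMSO. All 3 were lower in every H182 library, with log2 changes of -0.20, -0.18 and -0.18, and passed in 2, 4 and 2 of the 6 fits that left out a library. LARS, the leucine enzyme, had 135, 124 and 133 TPM in H182, against 139, 154 and 146 TPM in DMSO. Its change of -0.16 was close to the threshold (limma adjusted p = 0.0463) and passed in 1 of the 6 fits that left out a library. XPOT, which exports tRNAs from the nucleus, had 85.8, 90.4 and 90.1 TPM in H182, against 94.6, 103 and 98.9 TPM in DMSO, and likewise passed narrowly, with 1 of those 6 fits (log2 change -0.15, adjusted p = 0.0475).

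These 6 falls did not pass once the libraries were rescaled. With median-of-ratios scaling the log2 changes were -0.11 for VARS, -0.10 for IARS, -0.08 for RARS and KARS, -0.06 for LARS and -0.05 for XPOT. Relative to the median tested gene in TPM they were therefore low by about as much. Lower shares with no overlap between the groups were seen in 9 of the 20 synthetases, and in 32.7% of all tested genes. The count of synthetases that fell, 5 of 20, likewise lies near the 18.7% of all tested genes. Leaving out H182 replicate 1 left 2 of the 6 falls, and leaving out H182 replicate 2 or DMSO replicate 2 left 1.

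At the other end of the synthetases were AARS, MARS, GARS and CARS, which charge tRNAs with alanine, methionine, glycine and cysteine. AARS had 88.7, 93.5 and 101 TPM in H182, against 83.2, 87.0 and 86.3 TPM in DMSO. GARS (chromosome 7, 30594681 to 30634033, plus strand), which also supplies the mitochondrial enzyme, had 256, 265 and 269 TPM in H182, against 251, 243 and 236 TPM in DMSO. MARS had 122, 125 and 130 TPM in H182, against 120, 115 and 110 TPM in DMSO. In these 3 genes every H182 library was above every DMSO library, whereas CARS, with 77.9, 76.7 and 83.8 TPM in H182 against 72.2, 78.5 and 72.1 TPM in DMSO, overlapped. None of the 4 passed in TPM, with log2 changes of 0.14, 0.12, 0.13 and 0.10 for AARS, GARS, MARS and CARS. With median-of-ratios scaling all 4 rose, by 0.24, 0.22, 0.23 and 0.20 (limma adjusted p = 0.00829, 0.00486, 0.00980 and 0.0268), and with quantile normalization AARS, GARS and MARS did. The last exons of MARS overlap those of DDIT3, the gene of CHOP, on the opposite strand, and DDIT3 was at 60.0 TPM in H182 and 24.9 TPM in DMSO. The strand setting of the counting was not given in the sources used here, so the part of DDIT3 reads in the value of MARS was not tested.

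The other 11 synthetases did not pass with either scaling. SARS, TARS and NARS, for serine, threonine and asparagine, had log2 changes of 0.05, 0.03 and 0.03. WARS, the tryptophan enzyme, had the widest interval of the synthetases, -0.17 to 0.15, with 130, 143 and 161 TPM in H182 against 145, 141 and 151 TPM in DMSO. YARS, EPRS and QARS, for tyrosine, for glutamate and proline together, and for glutamine, had log2 changes of -0.06, -0.05 and -0.09. HARS, FARSA, DARS and FARSB, for histidine, phenylalanine, aspartate and again phenylalanine, had changes of -0.10, -0.11, -0.12 and -0.14. These 11 changes thus ran from -0.14 to 0.05, on both sides of the -0.09 of the median gene. HARS shares exon bases with HARS2, its mitochondrial counterpart, and with WDR55, both on the opposite strand, so their values may share reads. Among the synthetases the same holds for YARS with S100PBP and for WARS with WDR25. It also holds for KARS, which fell in TPM, with TERF2IP, at 43.1 TPM in H182 and 37.2 TPM in DMSO.

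A set of 8 synthetases, DARS, EPRS, IARS, KARS, LARS, MARS, QARS and RARS, is held in the multisynthetase complex. Of these 8, 4 fell, none rose and 7 had negative changes in TPM, where 18.7% of all tested genes fell and 71.2% had negative changes; the median was -0.14 on the log2 scale. After rescaling none of the 8 fell, MARS rose and 5 had negative changes. With that scaling 7.88% of all tested genes rose and 6.78% fell. Of the other 12, VARS fell, none rose and 6 had negative changes, with a median of 0.01. The summed level of the 8 complex genes was 962, 965 and 994 TPM in H182, against 1059, 1076 and 1031 TPM in DMSO, with no overlap in TPM as deposited. This sum was not rescaled, and the median tested gene was itself at 0.929 of its DMSO mean in H182 (mean of 3 libraries). The lower sum is therefore not read as a fall particular to the complex genes. With median-of-ratios scaling the medians were -0.04 for the complex genes and 0.11 for the other 12, of which 3 rose and none fell. The scaffold genes of the complex, AIMP1, AIMP2 and EEF1E1, did not pass, and AIMP2, at 71.0 ± 1.41 TPM in H182 and 78.4 ± 3.05 TPM in DMSO, came closest (limma adjusted p = 0.0605). Split by structural class, the 9 class I genes had a median of -0.09 and the 10 class II genes a median of -0.04, without EPRS, which joins both classes in a single protein. No test of the difference between these sets was made.

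**Figure D3:**
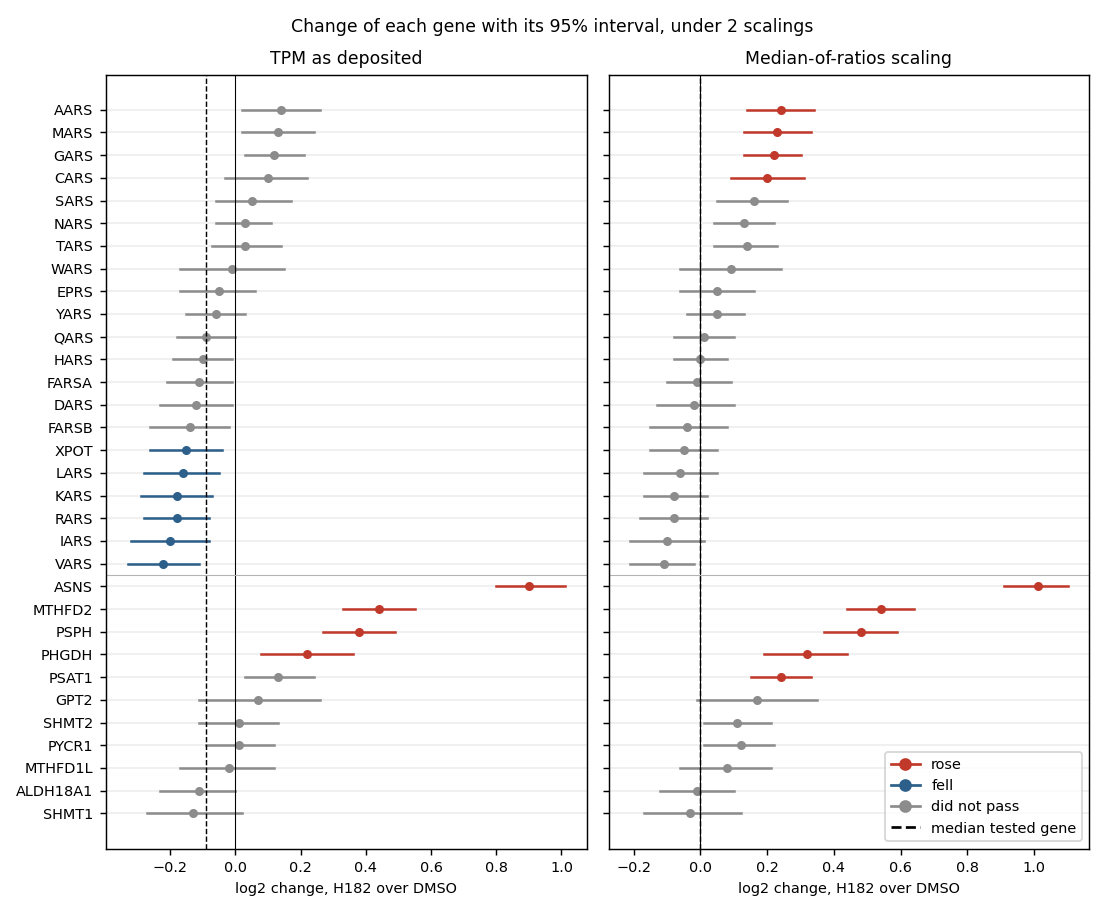
Log2 change of each member, H182 over DMSO, as points with 95% intervals, from TPM as deposited (left) and after median-of-ratios scaling (right); red marks genes that rose, blue genes that fell, grey genes that did not pass, and the dashed line the median tested gene at -0.09 and 0.00. The 4 rises of synthesis genes stand with both scalings, the 6 falls appear on the left only, and AARS, MARS, GARS, CARS and PSAT1 are called on the right only.

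The members with a response element in the promoter window were set beside those without. Of the 16 synthetases with a matched promoter, 7 held the core: AARS, CARS, GARS, IARS, MARS, NARS and TARS. Their median log2 change was 0.10 in TPM and 0.20 after median-of-ratios scaling. With that scaling 4 of the 7 rose, where 7.88% of all tested genes did. The 9 without it, QARS, RARS, WARS, EPRS, HARS, KARS, SARS, FARSA and FARSB, had medians of -0.10 and 0.00, and none rose. VARS, LARS, DARS and YARS had no matched promoter and are in neither set. Their log2 changes in TPM were all negative, at -0.22, -0.16, -0.12 and -0.06, and VARS and LARS fell. The sets overlapped: IARS, whose core lies at -13 to -6, was among the lowest of all synthetases, and SARS, without the core, was above TARS and NARS. Among the synthesis genes ASNS held the core and rose, and MTHFD1L held it and did not pass, while MTHFD2, PHGDH and PSAT1 rose in 1 or both scalings with no core in this window. Position from the annotated start varied from -187 to -180 in AARS to 15 to 22 in NARS and, from the farthest upstream of its starts that hold the core in their window, 25 to 32 in MTHFD1L. The promoter sets were formed with the changes known, so these medians are descriptions and carry no test.

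**Figure D4:**
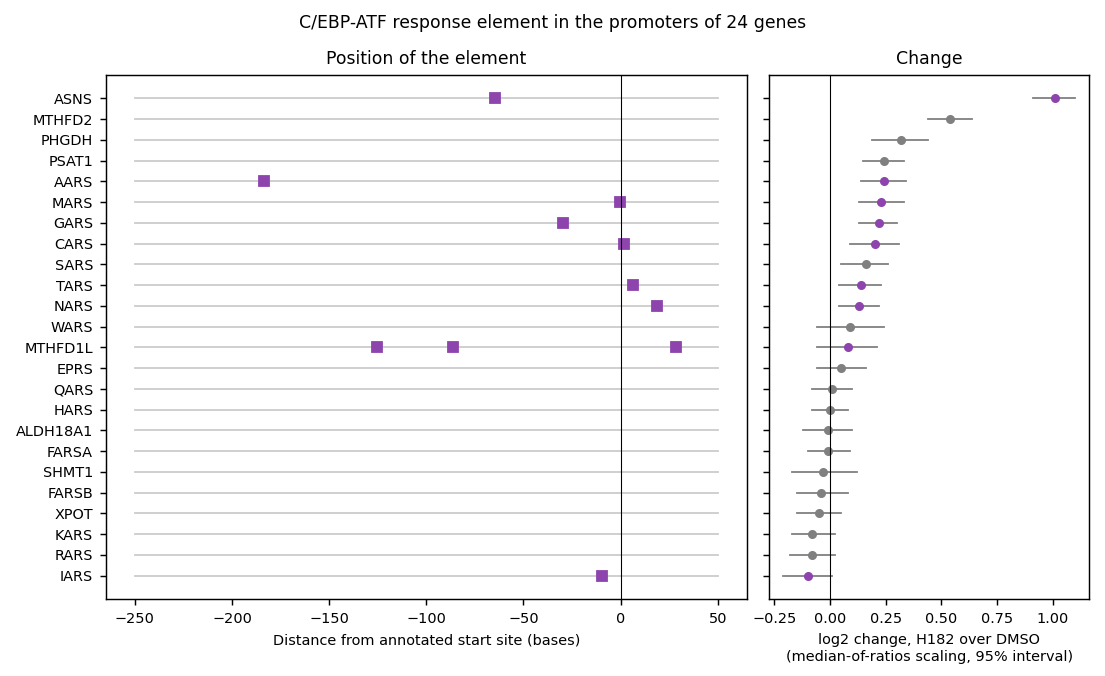
Position of the TGATGNAA core (squares) from 250 bases before to 50 after the annotated start for the 24 members with a matched promoter (left), and their log2 changes with median-of-ratios scaling and 95% intervals (right; purple points have the core). MTHFD1L has 3 annotated starts whose windows hold the same core, which therefore appears 3 times, and ASNS is at the top with 1.01 while IARS, also with the core, is at the bottom with -0.10.

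Other genes of these pathways were described from lists of related genes. All 17 mitochondrial synthetases were tested; none rose, 6 fell and 16 had negative changes, with a median log2 change of -0.21, where 18.7% of all tested genes fell and 71.2% had negative changes. With median-of-ratios scaling 1 of the 17, MARS2, the mitochondrial methionine enzyme, fell, where 6.78% of all tested genes did. It was at 6.2 ± 0.540 TPM in H182 and 9.41 ± 0.0351 TPM in DMSO (log2 change -0.54, limma adjusted p = 0.00421). IARS2 was at 88.7 ± 3.78 TPM in H182 and 103 ± 3.05 TPM in DMSO, and CARS2 and LARS2 had log2 changes of -0.28 and -0.33. The mitochondrial median was lower than the -0.07 of the cytosolic synthetases, and their levels were lower too, with a median of 21.2 TPM; the difference was not tested.

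Of 16 other one-carbon and folate enzymes tested, 8 fell and none rose in TPM, where 18.7% of all tested genes fell and 5.30% rose. With median-of-ratios scaling 2 of the 16 fell, where 6.78% of all tested genes did. SFXN1, the mitochondrial serine carrier, was at 95.5 ± 5.32 TPM in H182 and 121 ± 2.13 TPM in DMSO (log2 change -0.34, limma adjusted p = 0.00140). MTR, methionine synthase, fell by 0.42 on the log2 scale, and ATIC, of purine synthesis, fell by 0.19. These folate genes moved opposite to MTHFD2, and SFXN1 and MTR passed with both scalings.

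Of 19 other amino acid enzymes tested, 4 rose and 2 fell in TPM, where 5.30% of all tested genes rose and 18.7% fell. After rescaling 5 of the 19 rose and none fell, where 7.88% of all tested genes rose and 6.78% fell. CTH, which makes cysteine from cystathionine, rose more than any member, to 64.9 ± 4.59 TPM in H182, against 17.1 ± 0.935 TPM in DMSO (log2 change 1.86, limma adjusted p = 7.37e-08). ODC1, the first enzyme of polyamine synthesis, rose by 0.75, GLUL, glutamine synthetase, by 0.48 and MAT2A, which makes S-adenosylmethionine, by 0.40 on the log2 scale. CBS, with a mean of 0.0650 TPM, was below the filter, as was GLDC of the one-carbon and folate list, with a mean of 0.105 TPM. Of 12 amino acid transporters tested, 3 rose and SLC38A1 fell; after rescaling 5 rose, SLC7A5 and SLC1A5 being added, and none fell, where 7.88% of all tested genes rose. SLC38A2, a carrier of small neutral amino acids, was at 476 ± 25.3 TPM in H182 and 143 ± 12.2 TPM in DMSO (log2 change 1.72), and SLC3A2 and SLC7A11, the chains of the cystine carrier, rose by 0.64 and 0.62. The change of SLC38A1 (-0.21) was lost after that rescaling (-0.10).

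The list of other ATF4 and CHOP targets had a higher median change than the members, with log2 changes from -0.33 to 5.48. The list counts ATF4 and DDIT3 themselves, which both rose. Of 15 tested, 12 rose and 1 fell in TPM, where 5.30% of all tested genes rose and 18.7% fell. After rescaling 12 of the 15 rose and none fell, where 7.88% of all tested genes rose and 6.78% fell. The median log2 change of the list was 1.09 in TPM. DDIT4, a restraint of mTORC1, changed by 5.48, ATF3, a stress transcription factor, by 4.62, CHAC1, a glutathione-degrading enzyme, by 4.10 and SESN2, a leucine sensor, by 3.28. Not all changes were of that size. ATF4 mRNA itself rose by 0.32 (limma adjusted p = 0.000151), TRIB3 by 0.34 and CEBPG by 0.30, each less than ASNS. ATF5 was the gene that fell in TPM, with a log2 change of -0.24, and VLDLR (0.29) and NUPR1 (-0.33) did not pass. Against the list median of 1.09, the 32 members had a median of -0.02, and ASNS, the highest of them, lay below the median of that list. The list was picked for its known response to ATF4, with earlier results of these data in view, so its count is not independent evidence of a direction. Among promoters, 4 of 14 matched genes of that list held the core (ATF3, CEBPG, CHAC1 and JDP2), as did 6 of 11 amino acid transporters, 2 of 16 other amino acid enzymes, 1 of 14 mitochondrial synthetases, 0 of 13 other one-carbon and folate enzymes and 0 of 3 scaffold genes, against 4.46% of all genes. Of the 6 transporters with the core, SLC3A2 rose, SLC38A1 fell and SLC1A3, SLC1A4, SLC1A5 and SLC7A1 did not pass in TPM. Of the 2 enzymes with the core, BCAT1 fell (log2 change -0.30) and GOT1 did not pass in TPM.

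**Figure D5:**
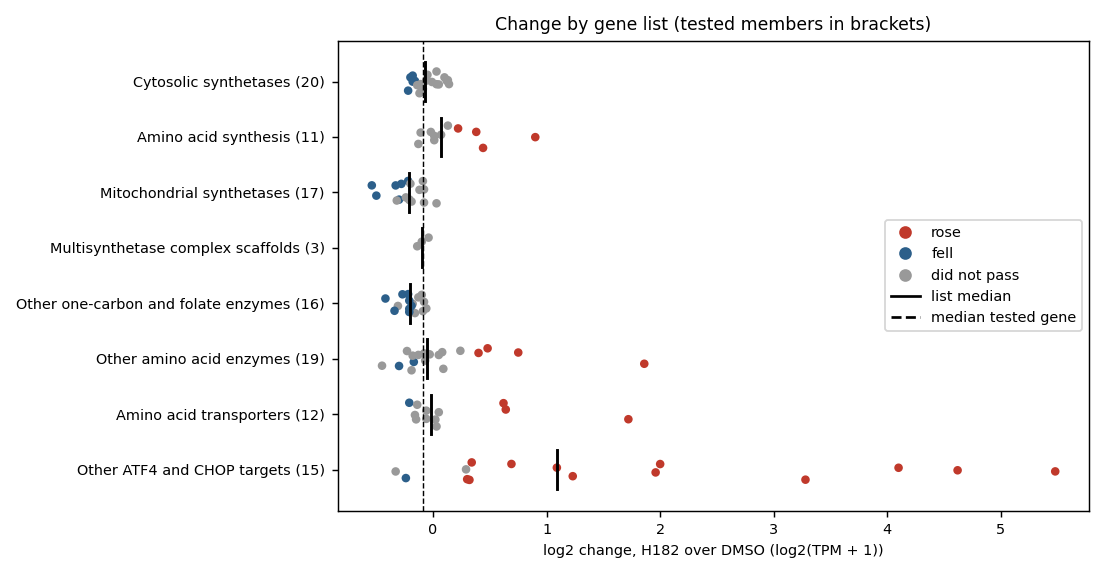
Log2 change of every tested member of each list, H182 over DMSO, with list medians as bars and the median tested gene at -0.09 as a dashed line; red marks genes that rose, blue genes that fell and grey genes that did not pass. The cytosolic synthetases (median -0.07) lie around the dashed line, the mitochondrial ones (median -0.21) to its left, and the other ATF4 and CHOP targets extend to 5.48.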

How the data were processed

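The authors deposited 1 table of TPM per gene and library, with values to 2 decimals; the submitters' processing notes name STAR 2.5.0, RSEM 1.2.25 and GRCh38. The annotation and strand setting are not given in the sources used here. Of 27567 rows, 92 spike-in rows at 0 and 24 second rows of genes shared by X and Y were left out. Values were analysed as log2(TPM + 1) for genes averaging 1 TPM or more, a scale that understates changes of low genes, with limma 3.58.1 in R 4.3.3 (empirical Bayes with a variance trend, two-sided) and Benjamini-Hochberg adjustment over 12294 genes at a threshold of 0.05. Intervals are 95% intervals of that fit. Rose and fell are used of genes past the threshold. The test was first tested on simulated data. The labels do not say how replicates were grown, so p-values cover only the variation among these 6 libraries, part of which may be technical; an exact permutation test of 3 against 3 could not go below 0.1. TPM keeps no read number, so no counting interval is given. Members and gene lists were chosen with earlier results of these data known. All 32 members were to be named, and of each other list up to 4 members with the lowest p among those passing, or 2 where none passed; others named were chosen after their values were seen. Gene coordinates are from GENCODE 29 (GRCh38). Alternatives covered the pseudocount, the filter, scaling, the variance trend, a replicate block, the threshold and leaving out each library. Plots used matplotlib 3.10.9 (Python 3.11.15).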

Additional observations from a re-analysis of the deposited data

How the results depend on the processing

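The count of amino acid synthesis genes that rose was 4, and it was 3 to 5 under the alternatives (3 without any library in turn), with none falling in any of them. ASNS, MTHFD2 and PSPH kept their calls under every alternative run. The count of synthetase and export genes that fell, 6, was 3 with no filter on low values, 0 with median-of-ratios scaling, 0 with quantile normalization, 0 with no variance trend, 0 at a threshold of 0.01, and 1 to 4 with 1 library left out. Their count of rises, 0, was 4 with median-of-ratios scaling and 3 with quantile normalization. Over all tested genes 2304 fell, against 833 with median-of-ratios scaling, 1261 with quantile normalization, 998 at a threshold of 0.01 and 1396 to 2205 with 1 library left out. The cause of these shifts was not tested beyond the scaling itself.

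Same-numbered libraries of the 2 groups did not deviate together (r = -0.0359 to 0.00245 across genes), so the numbers were not taken to pair them. With a replicate block 625 genes rose and 2059 fell, 5 synthetase and export genes fell and 3 synthesis genes rose; PHGDH (adjusted p = 0.0594) and LARS (0.0765) did not pass. Signs of changes near 0 turned with the scaling and never with a call. With median-of-ratios scaling the log2 changes were 0.01 for QARS, 0.09 for WARS, 0.05 for YARS, 0.05 for EPRS, 0.0001 for HARS, 0.08 for MTHFD1L and 0.01 for AIMP1, and with quantile normalization 0.06 for WARS, 0.03 for YARS, 0.04 for EPRS and 0.06 for MTHFD1L. With 1 library left out, the changes ran from -0.09 to 0.06 for WARS, -0.01 to 0.07 for TARS, -0.04 to 0.06 for SHMT2, -0.07 to 0.01 for MTHFD1L and -0.02 to 0.04 for PYCR1. Summing identifiers that share a symbol was not run, since each member has 1 identifier.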
